A study of Mus musculus with 12 samples.

Results

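The proteasome genes of the mouse heart were taken as the protein-coding genes whose symbol begins with Psm followed by a letter from a to g and a number, and that had at least 10 counts in 4 or more libraries. Of 48 genes considered among the 54146 gene records, 46 met the count minimum. Psme2b had no counts in any library and Psmb11, the catalytic subunit of the thymus proteasome, had at most 1. The lowest member inside the minimum was Psma8, a 20S subunit known from the testis, with at most 39 counts in a library. Psmb5, Psmb8 and Psmd1, which mark the 20S core, the immunoproteasome and the 19S particle, were detected in every library.

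RNA was measured in 12 hearts in 3 groups of 4: NRON KO mice 6 weeks after TAC surgery (TAC KO), wild-type mice 6 weeks after TAC surgery (TAC WT) and wild-type mice 6 weeks after sham surgery (Sham WT). TAC, transverse aortic constriction, narrows the aorta and puts the left ventricle under pressure overload, and NRON is a long noncoding RNA. Strain, age, how the knockout was made and which part of the heart was used are not given in the sources used here, and no knockout hearts after sham surgery were analysed here, so in TAC KO against Sham WT the genotype and the surgery cannot be told apart. Nron itself was listed at 0 counts in all 12 libraries, wild-type ones included, so its counts do not check the labels. Library totals were 26288519 to 35945770 counts. In heart tissue taken whole, fewer cells of a type and less RNA per cell cannot be told apart. The labels do not state whether each sample of a group is a different animal, and if not, the p-values cover technical spread alone.

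The proteasome is the protease that degrades proteins tagged with ubiquitin. Its 20S core is a barrel of outer alpha rings, which form the gate, and inner beta rings, which carry the catalytic sites. The 19S regulatory particle caps the barrel: the base holds the ATPases that unfold the substrate, and the lid holds the enzyme that removes the ubiquitin chain. Under interferon, the catalytic subunits Psmb8, Psmb9 and Psmb10 replace Psmb5, Psmb6 and Psmb7 in the immunoproteasome, and the PA28 activator of Psme1 and Psme2 can take the place of the 19S cap. Heart muscle depends on this system to clear damaged contractile proteins.

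Promoter sequence was examined because genes of this family are known to share transcription factors, among them Nfe2l1 at antioxidant response elements, NF-Y at CCAAT boxes and interferon factors at the interferon-stimulated response element. RefSeq promoters on build GRCm38.p6 were found for 38 of the 46 genes. The 6 shown belong to the genes that the results below turn on: Psme1 and Psme2, which had the largest log2 fold changes among the genes called between the TAC groups, and Psmb5, Psmb6, Psmb3 and Psmd4. These last are 4 of the 7 genes that were called higher in TAC KO than in Sham WT and hold letters of a motif searched. The others are Psma6, Psmc1 and Psmd9. Of the 22 genes called higher in that comparison 16 had a promoter, so 7 of 16 held such letters. These 4 were shown because they hold a motif, and a link between motif and call was not tested. Each sequence is the 250 bases before the start annotated in RefSeq (for Psme2, the more upstream of its 2 listed starts), read on the strand of the gene, 5′ to 3′. They lie at chr14:55578244-55578493 on the plus strand (Psme1), chr14:55591102-55591351 on the minus strand (Psme2), chr14:54617996-54618245 on the minus strand (Psmb5), chr11:70525107-70525356 on the plus strand (Psmb6), chr11:97703184-97703433 on the plus strand (Psmb3) and chr3:95042615-95042864 on the minus strand (Psmd4). Capitals mark a match, on either strand, to TGACNNNGC (the antioxidant response element core), CCAAT or GAAANNGAA (the interferon-stimulated response element).
Psme1: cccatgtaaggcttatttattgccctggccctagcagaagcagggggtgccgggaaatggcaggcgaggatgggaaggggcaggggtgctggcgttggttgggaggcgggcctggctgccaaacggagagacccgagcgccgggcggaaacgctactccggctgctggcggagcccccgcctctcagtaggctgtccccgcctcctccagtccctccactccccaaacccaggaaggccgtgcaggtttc
Psme2: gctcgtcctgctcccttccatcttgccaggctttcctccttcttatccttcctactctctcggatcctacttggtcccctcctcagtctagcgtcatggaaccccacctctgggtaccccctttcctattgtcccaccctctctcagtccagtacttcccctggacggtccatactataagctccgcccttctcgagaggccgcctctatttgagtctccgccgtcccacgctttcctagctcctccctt
Psmb5: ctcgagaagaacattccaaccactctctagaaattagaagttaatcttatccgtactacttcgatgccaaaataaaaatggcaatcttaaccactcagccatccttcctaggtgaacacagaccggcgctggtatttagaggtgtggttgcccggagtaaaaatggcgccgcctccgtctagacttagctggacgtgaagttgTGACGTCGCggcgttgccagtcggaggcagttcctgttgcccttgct
Psmb6: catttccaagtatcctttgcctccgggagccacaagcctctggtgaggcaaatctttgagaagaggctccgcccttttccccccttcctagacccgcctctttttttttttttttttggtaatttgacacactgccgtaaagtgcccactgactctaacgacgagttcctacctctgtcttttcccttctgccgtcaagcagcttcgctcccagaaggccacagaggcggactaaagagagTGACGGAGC
Psmb3: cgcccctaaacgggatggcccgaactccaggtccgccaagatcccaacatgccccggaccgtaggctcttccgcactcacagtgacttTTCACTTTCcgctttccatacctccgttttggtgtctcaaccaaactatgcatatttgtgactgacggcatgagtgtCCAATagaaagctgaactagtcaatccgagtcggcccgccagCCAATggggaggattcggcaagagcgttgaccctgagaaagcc
Psmd4: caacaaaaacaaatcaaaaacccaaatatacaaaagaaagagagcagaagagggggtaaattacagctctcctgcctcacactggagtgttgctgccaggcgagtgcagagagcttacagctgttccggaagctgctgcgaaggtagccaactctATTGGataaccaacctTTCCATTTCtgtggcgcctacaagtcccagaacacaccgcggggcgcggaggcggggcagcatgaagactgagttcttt

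TGACNNNGC began 47 bases before the start of Psmb5 and 9 bases before that of Psmb6. CCAAT was present in Psmb3, at 85 and 43 bases before the start, and in Psmd4, at 95 bases before it on the other strand. GAAANNGAA was found on the other strand in both genes, at 162 bases before the Psmb3 start and 79 bases before the Psmd4 start. The windows of Psme1 and Psme2 held none of the letters searched. The Psme1 window lies wholly inside the gene as GENCODE M21 places it, from base 55578123 on. The bases before that start were not searched. The share of G and C was 66.8% in the Psme1 window and 57.2% in the Psme2 window, where windows of the family ran from 42.8% (Psma6) to 77.2% (Psma7). TGACNNNGC was present in 13.2% of the 38 proteasome genes with a promoter, beside 11.5% of all 27025 genes with one. For CCAAT the shares were 34.2% of the proteasome genes and 37.5% of all genes, and for GAAANNGAA 7.89% and 8.18%. TTCNNNGAA (the STAT site) was in 5.26% of the proteasome genes and 8.13% of all genes, and GCATGCGC (the nuclear respiratory factor 1 site) in 5.26% of the proteasome genes and 2.56% of all genes. The motifs do not overlap each other in the sequences shown.

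Levels differed by over 2 orders of magnitude between the members, in RPKM, the counts per kilobase of the principal transcript scaled to the total of the library. In Sham WT hearts the constitutive beta ring had a median level of 77.4 RPKM over its 7 genes, with Psmb6 the highest member of the family at 134 RPKM. The 6 base ATPases had a median of 62.5 RPKM and the 7 lid genes 52.7 RPKM. Immunoproteasome catalytic subunits stood lower, with 28.8 RPKM for Psmb10, 9.89 RPKM for Psmb8 and 6.5 RPKM for Psmb9. The chaperones that assemble the 19S base had a median of 4.22 RPKM, and Psma8 was last at 0.399 RPKM. The order depends on the length used: over the union of all exons Psmb6 ranked 6 and Psmc3, a base ATPase, ranked 1 at 77.8 RPKM.

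The 46 genes together took a larger share of the counts in TAC KO hearts than in TAC WT hearts, and a larger share in TAC WT than in Sham WT hearts. The share was 0.3878%, 0.4009%, 0.4003% and 0.3939% of all counts in the 4 TAC KO hearts. It was 0.3701%, 0.3578%, 0.3742% and 0.3813% in the TAC WT hearts and 0.3454%, 0.3458%, 0.3451% and 0.3402% in the Sham WT hearts. The groups did not overlap, with means of 0.3957% ± 0.0062 in TAC KO, 0.3708% ± 0.0098 in TAC WT and 0.3441% ± 0.0026 in Sham WT (SD, n = 4 each). Mitochondrially encoded transcripts took 17.4% to 22.2% of counts, and over the counts outside them the shares were 0.4925% ± 0.0140 in TAC KO, 0.4549% ± 0.0111 in TAC WT and 0.4384% ± 0.0044 in Sham WT. On that scale the lowest TAC WT heart, at 0.4427%, stood just above the highest Sham WT heart, at 0.4425%.

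**Figure D1:**
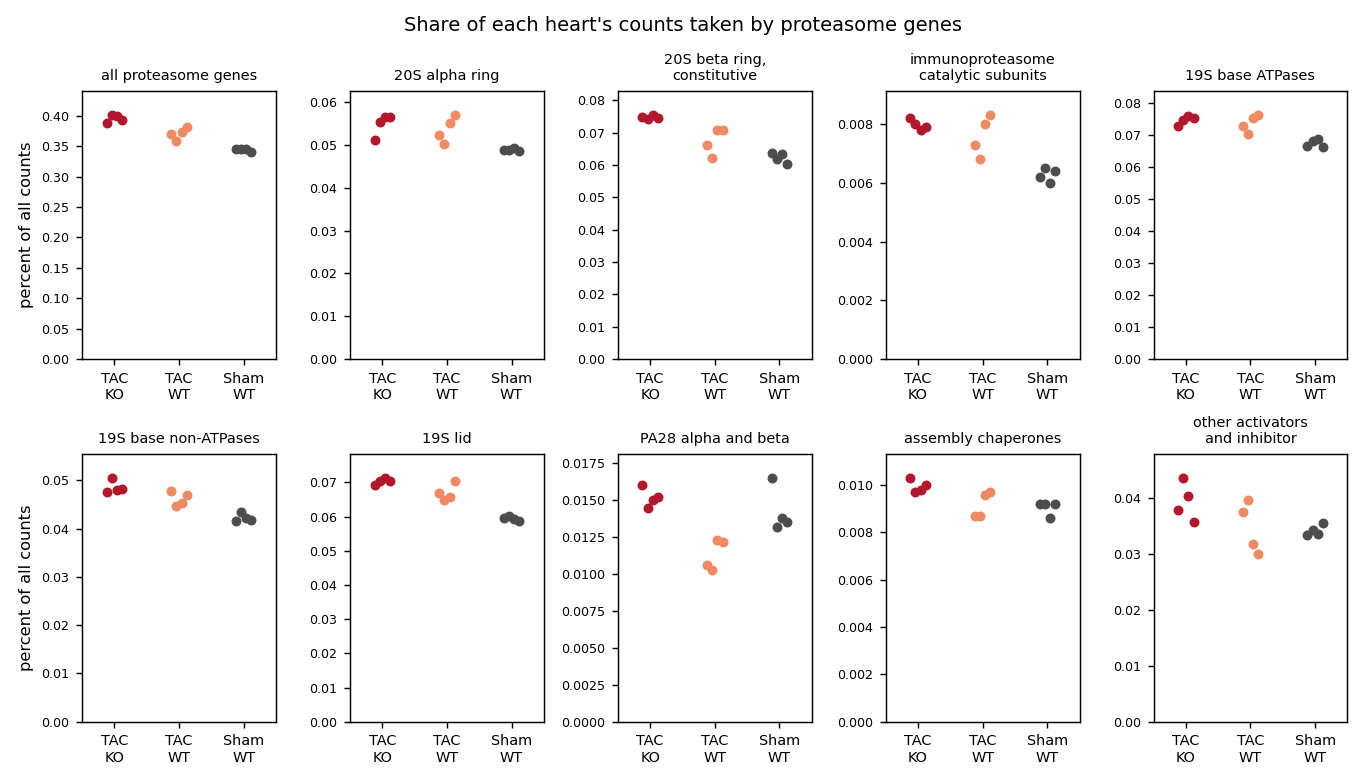
Percent of all counts of each heart taken by all proteasome genes and by each subgroup (vertical axes, each starting at 0), with 1 point per heart and 4 hearts in each of TAC KO, TAC WT and Sham WT. The 3 groups are separate for all proteasome genes, and the PA28 pair is lowest in the 4 TAC WT hearts.

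The first comparison, TAC KO against TAC WT hearts, asks what loss of NRON did to the family under pressure overload. Of the 46 genes, 12 were higher in TAC KO hearts and 0 were lower at an adjusted p under 0.05, in edgeR's quasi-likelihood test with Benjamini-Hochberg adjustment over all 15477 genes tested. Over all tested genes 15.7% were called higher and 17.3% lower. The 12 genes were both PA28 subunits, 4 of the 7 constitutive beta subunits, 2 of the 7 lid subunits, 1 of the 6 base ATPases, 1 of the 3 other base subunits, the 19S chaperone Psmd9 and the inhibitor Psmf1. None of the 8 alpha ring genes was called, and 0 were called by DESeq2 or by limma voom, with 0 higher and 1 lower at an unadjusted p under 0.05. Over the 46 genes the median log2 fold change was 0.094, beside -0.002 over all tested genes. At an unadjusted p under 0.05, 15 members were higher and 2 lower, and DESeq2 called 13 higher and 1 lower where limma voom called 13 and 0.

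Psme1, which encodes PA28 alpha, changed most among the called genes. Its counts scaled to the library total as counts-per-million (CPM) were 115, 101, 107 and 108 in TAC KO hearts, against 71.2, 70.5, 85.1 and 83.0 in TAC WT hearts. Every TAC KO heart was above every TAC WT heart, and the gene was 40.6% higher in TAC KO (log2 fold change 0.49 ± 0.09 SE, adjusted p = 0.00103 by edgeR). Psme2, which encodes PA28 beta and neighbours Psme1 on chromosome 14, had 45.4, 44.0, 43.1 and 44.4 CPM in TAC KO hearts, against 34.8, 32.9, 38.1 and 38.9 CPM in TAC WT hearts. These groups were separate as well (log2 fold change 0.31 ± 0.06 SE, adjusted p = 0.00234 by edgeR). Psme2 shares 99.4% of its aligned bases with Psme2b, which had no counts. Neither other activator was called. Psme3, the nuclear PA28 gamma, averaged 66.6 CPM in TAC KO and 67.1 CPM in TAC WT. Psme4, the activator PA200, averaged 307 ± 31.7 CPM in TAC KO and 263 ± 45.1 CPM in TAC WT, with overlapping hearts and an adjusted p of 0.123 by edgeR.

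Psmf1, which encodes the proteasome inhibitor PI31, had 20.1, 21.3, 18.3 and 17.6 CPM in TAC KO hearts, against 16.2, 16.5, 16.5 and 16.4 CPM in TAC WT hearts. All TAC KO hearts were higher (log2 fold change 0.25 ± 0.07 SE, adjusted p = 0.0140 by edgeR). Psmb2, a beta ring subunit without a catalytic site, had 83.0, 83.3, 76.6 and 80.3 CPM in TAC KO hearts, against 65.2, 60.4, 72.0 and 71.2 CPM in TAC WT hearts. The groups did not overlap, and the log2 fold change was 0.28 ± 0.06 (SE, adjusted p = 0.00306 by edgeR). Psmb3, another structural beta subunit, averaged 55.4 ± 1.8 CPM in TAC KO and 46.8 ± 5.49 CPM in TAC WT (log2 fold change 0.26). Psmb6, the subunit with the caspase-like site, averaged 126 ± 4.47 CPM in TAC KO and 112 ± 8.46 CPM in TAC WT (log2 fold change 0.20). Psmb5, which carries the chymotrypsin-like site, averaged 38.3 ± 1.22 CPM in TAC KO and 35.0 ± 2.91 CPM in TAC WT and did not pass the test. It was called higher by limma voom (adjusted p = 0.0474) but not by DESeq2. By edgeR it was also called with upper-quartile scaling (adjusted p = 0.0407), with 1 surrogate variable (0.0393) and without TAC WT replicate 4 (0.0488).

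In the 19S particle the calls were scattered over its layers. Psmd8, a lid subunit, had 119, 111, 105 and 110 CPM in TAC KO hearts, against 99.4, 95.1, 99.6 and 101 CPM in TAC WT hearts. The hearts of the 2 groups were separate and the log2 fold change was 0.19 ± 0.05 (SE, adjusted p = 0.0144 by edgeR). Psmd4, the ubiquitin receptor of the base, averaged 113 ± 3.14 CPM in TAC KO and 102 ± 7.31 CPM in TAC WT (log2 fold change 0.18). The ATPase Psmc3 averaged 233 ± 3.88 CPM in TAC KO and 211 ± 6.01 CPM in TAC WT (log2 fold change 0.16). The lid subunit Psmd3 was called with a log2 fold change of 0.17 although its hearts overlapped. Psmd14, the lid enzyme that cuts the ubiquitin chain off the substrate, averaged 51.2 CPM in TAC KO and 52.7 CPM in TAC WT and did not pass the test. The ATPase Psmc6 was the only base gene with every TAC KO heart below every TAC WT heart, at 69.7, 91.2, 96.0 and 92.7 CPM in TAC KO and 104, 100, 98.8 and 112 CPM in TAC WT. Its adjusted p was 0.0535 by edgeR, so it was not called.

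The TAC KO libraries also differed from the others in base composition and gene length. With genes cut into 5 equal groups by GC content, the richest stood 0.104 to 0.429 log2 units above the poorest in TAC KO libraries, against between -0.149 and -0.061 in TAC WT libraries and between -0.120 and -0.041 in Sham WT libraries. With 5 equal groups by transcript length, the longest stood at -0.256 to -0.147 log2 units relative to the shortest in TAC KO libraries, against -0.035 to 0.192 in TAC WT and -0.002 to 0.149 in Sham WT libraries. The proteasome genes had a median longest transcript of 1895 bases, beside 3194 for all tested genes, and a median GC content of 49.7%, beside 49.6%. With each library's trend over GC content and length removed, 8 members were higher and 1 lower in TAC KO than in TAC WT, where 12.6% of all tested genes were called higher and 13.7% lower, and the median over the members was 0.021.

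Of the 12 genes, 4 were also called with the trends removed: Psme1 (log2 fold change 0.32, adjusted p = 0.0107 by edgeR), Psme2 (0.17, adjusted p = 0.0337), Psmb2 (0.17, adjusted p = 0.0283) and Psmf1 (0.27, adjusted p = 0.0081). Psmc3 had a log2 fold change of -0.004 after removal. The other 4 called genes were Psma2, Psmb7, Psmc2 and Psme4, the last with a log2 fold change of 0.42 and an adjusted p of 0.00638 by edgeR. The 1 gene called lower was the ATPase Psmc5, at -0.19. Without TAC WT replicate 1, 6 genes were called higher, as Psmb4, Psmb6, Psmc3, Psmd3, Psmd4 and Psmd9 each lost their call. Without TAC KO replicate 4, 7 were, and Psmb4, Psmb6, Psmc3, Psmd3 and Psmd4 lost theirs. Calls were also lost without TAC KO replicate 1 (Psmb4 and Psmd9), TAC KO replicate 2 or TAC WT replicate 2 (Psmb4 and Psmd4), TAC KO replicate 3 or Sham WT replicate 2 (Psmb4) and TAC WT replicate 4 (Psmc3), with adjusted p-values of at most 0.0935 by edgeR. Psmc6 was the 1 gene called lower without TAC KO replicate 3 or without TAC KO replicate 4, with a log2 fold change of -0.27 in each. Without TAC WT replicate 2 the 1 gene called lower was Psma8, the member with the lowest level (log2 fold change -0.9, adjusted p = 0.0351 by edgeR).

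**Figure D2:**
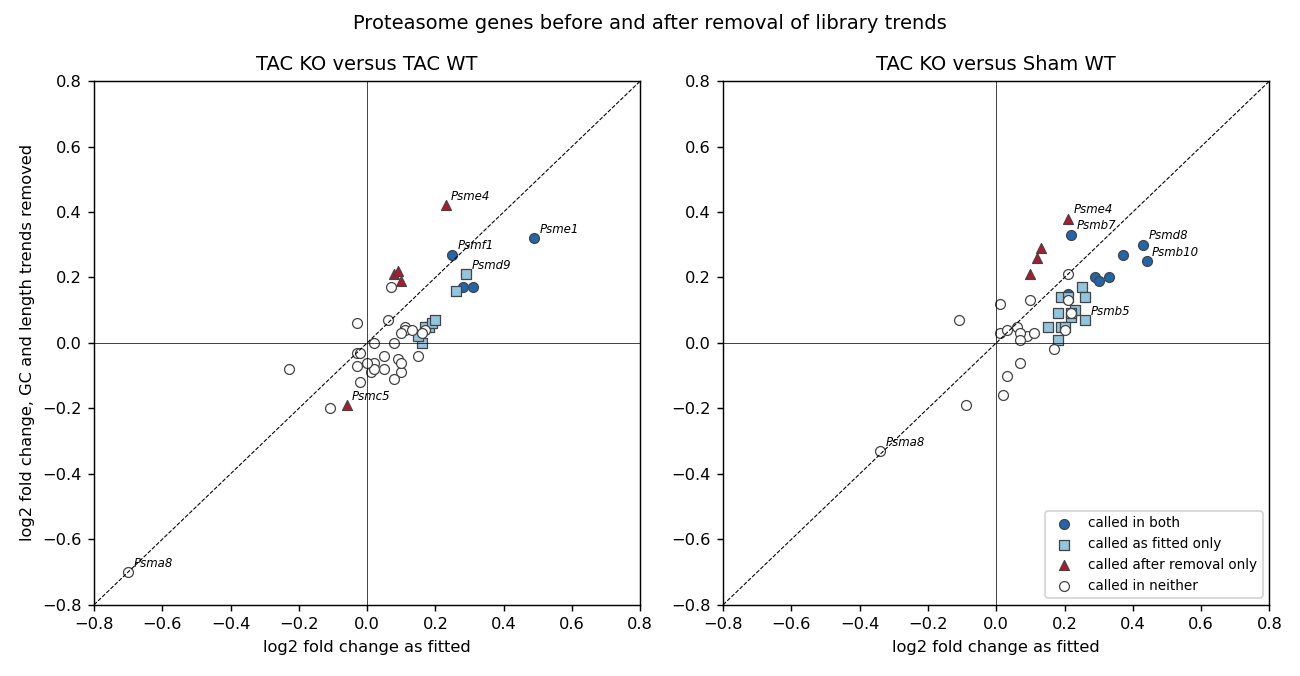
Log2 fold change of the 46 proteasome genes as fitted (horizontal axis) and with each library's GC and length trends removed (vertical axis), for TAC KO against TAC WT and for TAC KO against Sham WT. Of the 46 points, 35 lie below the dashed line of equal values in the first panel and 34 in the second, and Psme4 lies above it in both panels.

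The second comparison set TAC KO against Sham WT hearts and so holds both the surgery and the genotype. It shares its TAC KO hearts with the first comparison and its Sham WT hearts with the third. Here 22 of the 46 genes were higher in TAC KO and 0 were lower by edgeR, where 12.8% of all tested genes were called higher and 14.8% lower. At an unadjusted p under 0.05, 27 were higher and 0 lower. DESeq2 called 24 higher and 0 lower, and limma voom 26 and 0. The median log2 fold change of the members was 0.189, beside 0 over all tested genes, and 43 of the 46 were positive. All 7 constitutive beta subunits were called, together with 5 of the 7 lid subunits (Psmd3, Psmd6, Psmd7, Psmd8 and Psmd13), 3 of the 6 ATPases (Psmc1, Psmc3 and Psmc4), Psmd2 and Psmd4 of the base, Psma5 and Psma6 of the alpha ring, Psmb10, Psme2 and Psmd9.

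The 7 beta subunits had log2 fold changes between 0.22 and 0.30. With the GC and length trends removed their range was 0.07 to 0.33, and 3 of the 7 were called. In the same setting 4 of the 8 alpha ring genes were called higher, beside 9.86% of all tested genes. Without that removal 2 of the 8 were called by edgeR, and 4 each by DESeq2 and by limma voom, so the contrast between the rings depended on the setting. Psmb1, a structural subunit, had 122, 127, 125 and 118 CPM in TAC KO hearts, against 94.8, 99.1, 103 and 98.9 CPM in Sham WT hearts, a log2 fold change of 0.29 ± 0.05 (SE, adjusted p = 0.00131 by edgeR). Psmb5 had 39.3, 36.7, 39.3 and 38.0 CPM in TAC KO hearts, against 33.0, 31.2, 32.1 and 29.7 CPM in Sham WT hearts, a log2 fold change of 0.26 ± 0.06 (SE, adjusted p = 0.00609 by edgeR). For all 7 beta genes every TAC KO heart was above every Sham WT heart. The same held for members outside the beta ring that were not called, such as Psmc5 and Psmg4. The share of all tested genes without overlap was not counted. Psmb7, the subunit with the trypsin-like site, averaged 161 ± 5.53 CPM in TAC KO and 136 ± 5.41 CPM in Sham WT.

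Psmb10, the immunoproteasome counterpart of Psmb7, had the largest log2 fold change of the called genes at 0.44 ± 0.06 (SE, adjusted p = 0.000144 by edgeR). With the GC and length trends removed, the largest value among the immunoproteasome catalytic subunits was 0.25. That was below Psmd8 at 0.30 and Psme4 at 0.38. Psmb10 had 53.6, 53.0, 50.5 and 51.8 CPM in TAC KO hearts, against 36.9, 39.3, 35.6 and 39.4 CPM in Sham WT hearts. Psmd8 had 119, 111, 105 and 110 CPM in TAC KO hearts, against 79.1, 84.4, 82.1 and 79.0 CPM in Sham WT hearts. Both genes were separate between the groups, and Psmd8 had a log2 fold change of 0.43 ± 0.05 (SE, adjusted p = 9.93e-05 by edgeR). Psmd4 averaged 113 ± 3.14 CPM in TAC KO and 88.8 ± 3.12 CPM in Sham WT (log2 fold change 0.33). Psmd2, the base subunit where ubiquitin-like domains dock, averaged 249 ± 7.02 CPM in TAC KO and 215 ± 6.3 CPM in Sham WT (log2 fold change 0.19). Psme1 averaged 108 ± 5.45 CPM in TAC KO and 105 ± 13.4 CPM in Sham WT and did not pass the test (adjusted p = 0.904 by edgeR).

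With the GC and length trends removed, 13 genes were higher in TAC KO than in Sham WT and 0 lower, where 9.86% of all tested genes were called higher and 11.5% lower. Of the 22 genes, 9 were among these 13: Psma5, Psma6, Psmb1, Psmb3, Psmb7, Psmb10, Psmd3, Psmd4 and Psmd8. Psma2, Psma3, Psmc2 and Psme4 were called after removal only. Psmb5 had a log2 fold change of 0.07 after removal (adjusted p = 0.37 by edgeR). Psme2 lost its call without TAC KO replicate 2, TAC KO replicate 4, Sham WT replicate 2 or Sham WT replicate 4, with an adjusted p of at most 0.0914 by edgeR. The calls of Psmc1, Psmc3, Psmd2, Psmd7 and Psmd9 were lost without Sham WT replicate 4. Those of Psmc1, Psmd7 and Psmd9 were also lost without Sham WT replicate 1, those of Psmc1 and Psmd7 without TAC KO replicate 2 or Sham WT replicate 2, that of Psmd7 without TAC KO replicate 3 or 4, and that of Psmd9 without TAC KO replicate 1 or Sham WT replicate 3 (adjusted p at most 0.112 by edgeR).

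**Figure D3:**
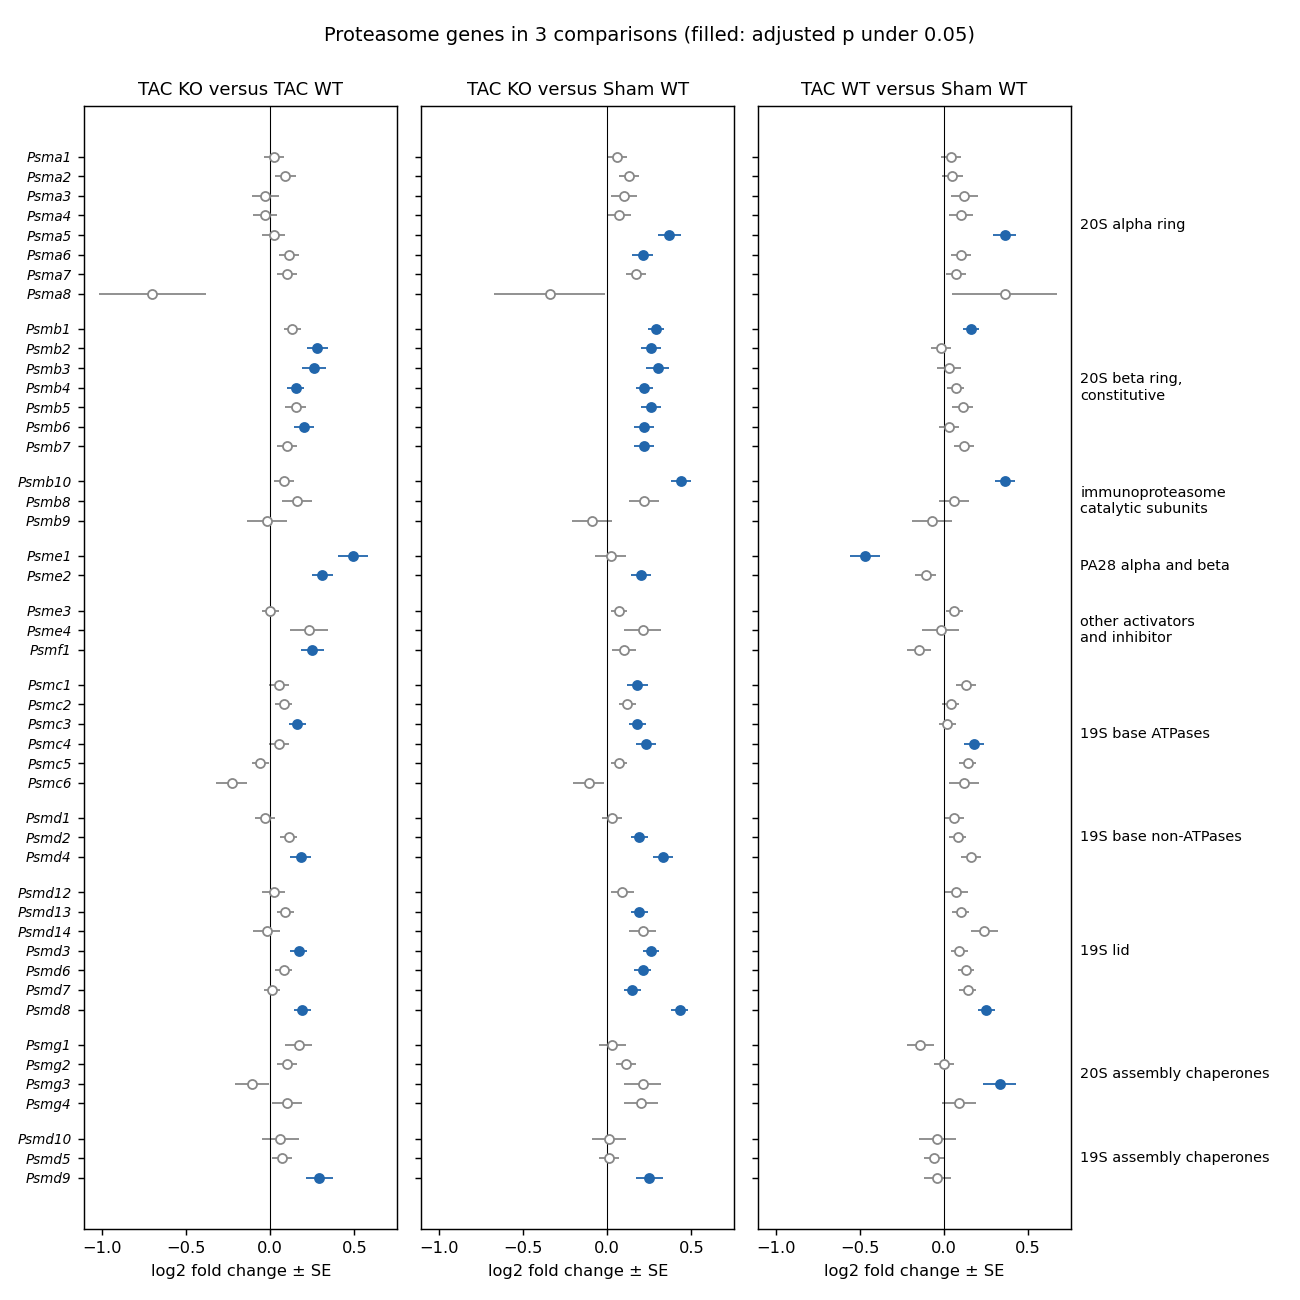
Log2 fold change ± SE (horizontal axes) of the 46 proteasome genes (rows, by subgroup) in the 3 comparisons, filled where the adjusted p was under 0.05. All 7 constitutive beta subunits are filled in TAC KO against Sham WT, and Psme1 is the 1 filled point left of 0, in TAC WT against Sham WT.

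The third comparison, TAC WT against Sham WT hearts, gives the effect of the surgery in wild-type mice. By edgeR 6 of the 46 genes were higher in TAC WT and 1 was lower, where 9.67% of all tested genes were called higher and 10% lower. The higher genes were Psma5, Psmb10, Psmg3, Psmd8, Psmc4 and Psmb1, which belong to 6 different subgroups, and the lower gene was Psme1. Over the 16 genes of the 19S particle all 16 log2 fold changes were positive, from 0.02 to 0.25, and 2 were called. The median over the 46 members was 0.074.

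Psma5, an alpha ring subunit, had 35.4, 33.3, 37.2 and 44.8 CPM in TAC WT hearts, against 29.9, 27.8, 28.7 and 28.0 CPM in Sham WT hearts. The groups were separate and the log2 fold change was 0.36 ± 0.07 (SE, adjusted p = 0.004 by edgeR). Psmb10 had 50, 45.4, 51.7 and 52.7 CPM in TAC WT hearts, against 36.9, 39.3, 35.6 and 39.4 CPM in Sham WT hearts. All TAC WT hearts were higher (log2 fold change 0.36 ± 0.06 SE, adjusted p = 0.000586 by edgeR). Psmd8 averaged 98.7 ± 2.5 CPM in TAC WT and 81.1 ± 2.61 CPM in Sham WT (log2 fold change 0.25 ± 0.05 SE, adjusted p = 0.00467 by edgeR).

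Psme1 went the other way, with 71.2, 70.5, 85.1 and 83.0 CPM in TAC WT hearts, against 125, 95.8, 99.1 and 98.9 CPM in Sham WT hearts. Every TAC WT heart was lower, and Sham WT replicate 1 stood above the other sham hearts. The log2 fold change was -0.47 ± 0.09 (SE, adjusted p = 0.00184 by edgeR), and it was between -0.52 and -0.37 with each library left out in turn. Its partner Psme2 averaged 36.1 ± 2.8 CPM in TAC WT and 37.9 ± 2.39 CPM in Sham WT, with overlapping hearts and an adjusted p of 0.259 by edgeR. The ratio of Psme1 to Psme2, in counts per kilobase of all exons, was 1.94 ± 0.0741 in TAC KO, 1.71 ± 0.0618 in TAC WT and 2.20 ± 0.189 in Sham WT hearts (SD, n = 4 each). The TAC WT range of 1.63 to 1.79 lay below both the TAC KO range of 1.84 to 2.02 and the Sham WT range of 2.01 to 2.46.

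The calls for Psmc4, Psmg3 and Psmb1 were close to the threshold, with adjusted p-values of 0.0394, 0.0412 and 0.0455 by edgeR. Leaving out Sham WT replicate 3, Sham WT replicate 4 or TAC WT replicate 4 left 3 genes called higher, while leaving out TAC KO replicate 1, which is in neither group but in the shared fit, gave 10. All 3 calls were lost without Sham WT replicate 1, 3 or 4 or TAC WT replicate 3 or 4, those of Psmg3 and Psmb1 without Sham WT replicate 2, and that of Psmb1 without TAC KO replicate 3, TAC KO replicate 4 or TAC WT replicate 1 (adjusted p at most 0.119 by edgeR). With the GC and length trends removed 8 genes were higher and 1 lower, where 10.9% of all tested genes were called higher and 11.6% lower, and all 6 genes were among the 8.

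**Figure D4:**
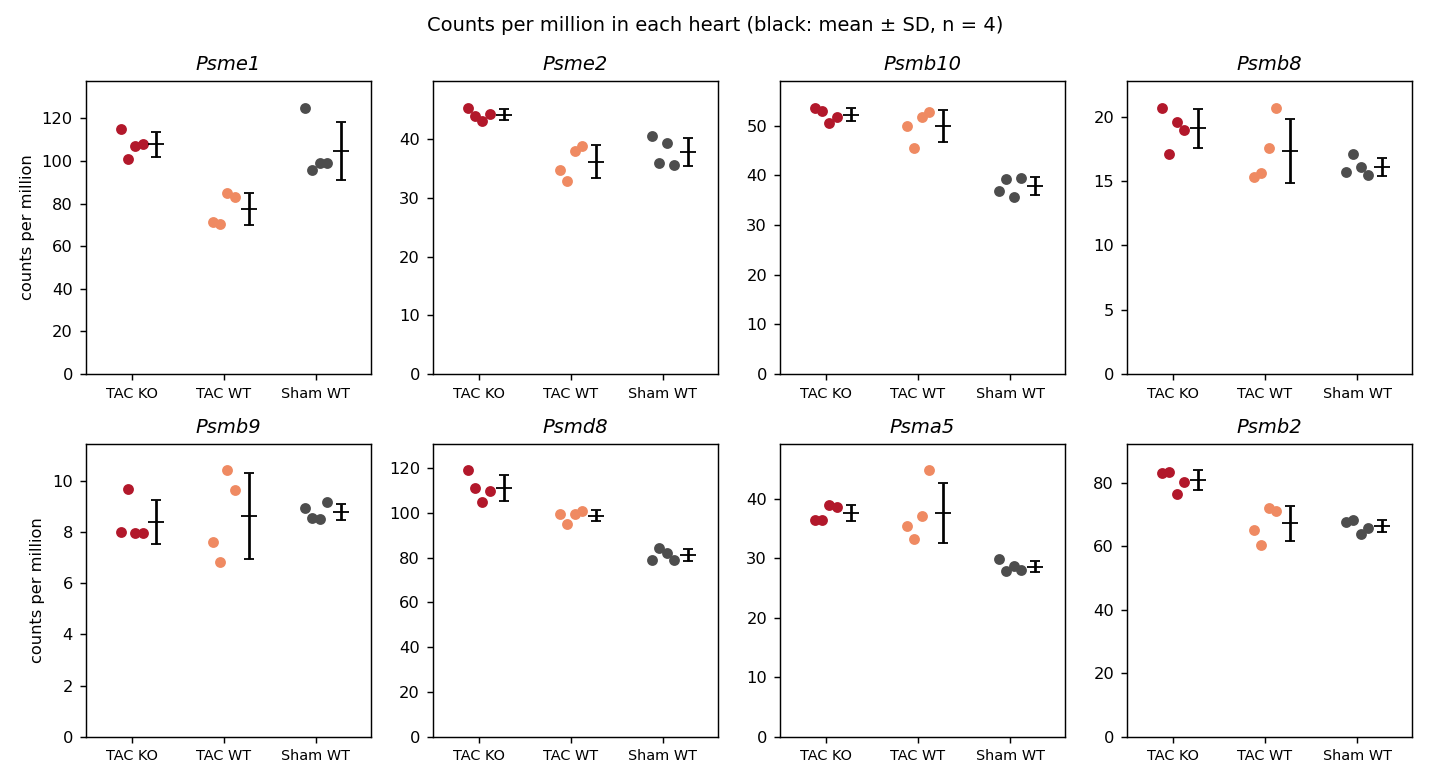
CPM (vertical axes, from 0) of 8 proteasome genes in each heart, with 1 point per heart, 4 hearts a group and the mean ± SD in black. Psme1 is lowest in the 4 TAC WT hearts, and Psmb10, Psmd8 and Psma5 are lowest in the 4 Sham WT hearts.

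The immunoproteasome catalytic subunits did not move as a set. Psmb10 was higher in both TAC groups than in Sham WT, while Psmb8 and Psmb9 were not called in any comparison by edgeR on all 12 libraries, by DESeq2 or by limma voom. Psmb8 had 20.7, 17.1, 19.6 and 19 CPM in TAC KO hearts, 15.3, 15.6, 17.6 and 20.7 CPM in TAC WT hearts and 15.7, 17.1, 16.1 and 15.5 CPM in Sham WT hearts. Psmb9 had 7.98, 9.68, 7.96 and 7.97 CPM in TAC KO hearts, 7.62, 6.83, 10.4 and 9.62 CPM in TAC WT hearts and 8.93, 8.54, 8.50 and 9.17 CPM in Sham WT hearts. For both genes all groups overlapped, with adjusted p-values of 0.0762 or more for Psmb8 and 0.625 or more for Psmb9 by edgeR. Psmb8 was called higher in TAC KO than in Sham WT when only those 2 groups were fitted (adjusted p = 0.034 by edgeR), without TAC KO replicate 2 (0.0479) or without TAC WT replicate 4 (0.036). Without TAC WT replicate 4 it was also called higher in TAC KO than in TAC WT (log2 fold change 0.24, adjusted p = 0.0352 by edgeR).

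As ratios of counts per kilobase of all exons, Psmb8 over Psmb5 was 0.132 ± 0.00678 in TAC KO, 0.131 ± 0.0107 in TAC WT and 0.136 ± 0.00816 in Sham WT hearts (SD, n = 4 each), and the groups overlapped. Psmb9 over Psmb6 was 0.0341 ± 0.00484 in TAC KO, 0.0393 ± 0.00484 in TAC WT and 0.0422 ± 0.00253 in Sham WT hearts. TAC KO hearts had 0.0317, 0.0413, 0.0317 and 0.0316, so 3 of them were below every other heart and TAC KO replicate 2 was not. Psmb10 over Psmb7 was 0.652 ± 0.0376 in TAC KO, 0.659 ± 0.0207 in TAC WT and 0.557 ± 0.0470 in Sham WT hearts. Its TAC WT hearts were all above the Sham WT hearts, and the lowest TAC KO heart, at 0.612, lay just under the highest Sham WT heart, at 0.614. On the opposite strand, Gm20496 overlaps 14.7% of the Psmb8 exons, Nek6 11.8% of those of Psmb7 and Tap1 5.79% of those of Psmb9, and Mir686 overlaps 12.1% of those of Psmb5 on the same strand. The strand setting of the counting is not given in the sources used here.

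**Figure D5:**
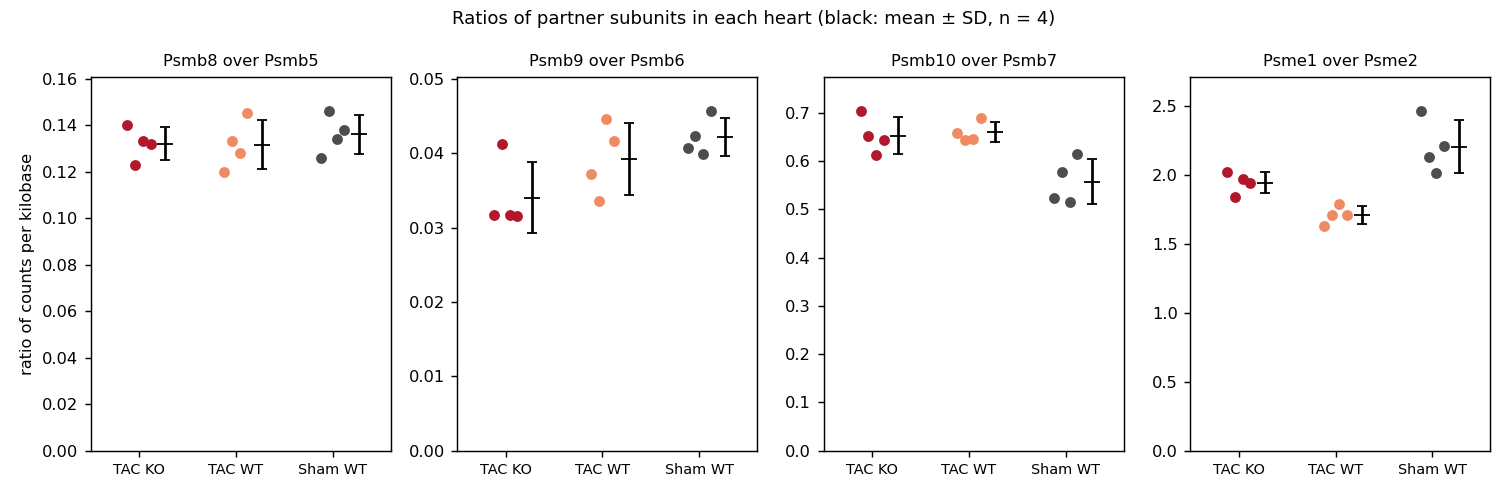
Ratios of counts per kilobase of all exons for 4 pairs of subunits in each heart (vertical axes, from 0), with 1 point per heart, 4 hearts a group and the mean ± SD in black. Psmb8 over Psmb5 is alike in range across the groups, from 0.120 to 0.146, while Psmb10 over Psmb7 is lower in Sham WT hearts than in TAC WT hearts.

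Of the 7 chaperone genes, 1 (14.3%) was called higher in each comparison, near the 15.7%, 12.8% and 9.67% of all tested genes called higher in TAC KO against TAC WT, TAC KO against Sham WT and TAC WT against Sham WT. Psmg3, which helps build the alpha ring, was called in TAC WT against Sham WT, at 5.04 ± 0.707 CPM in TAC WT and 3.91 ± 0.227 CPM in Sham WT (log2 fold change 0.33). Psmd9, a chaperone of the 19S base, had 23.9, 19.9, 19.9 and 19.4 CPM in TAC KO hearts, against 15.5, 17.4, 17.4 and 18.3 CPM in TAC WT hearts. TAC KO replicate 1 was the highest, and without it or without TAC WT replicate 1 the call was lost (adjusted p at most 0.0604 by edgeR). A lincRNA, Gm26745, overlaps 25.5% of the Psmd9 exons on the opposite strand. Pomp, the maturation factor of the 20S core, was higher in both TAC groups than in Sham WT, at 85.6 CPM in TAC KO and 86.5 CPM in TAC WT, against 72.0 CPM in Sham WT (log2 fold changes 0.23 and 0.22, adjusted p = 0.0107 and 0.0137 by edgeR). It was 1 of 11 tested genes in a list of other proteasome-bound proteins. In TAC KO against TAC WT 15.7% of all tested genes were called higher and 17.3% lower. Of the 11 in the list, 1 was called higher and 1 lower in that comparison. The higher gene was the ubiquitin receptor Adrm1, at 52.2 CPM in TAC KO and 46.0 CPM in TAC WT. The lower gene was the ubiquitin ligase Ube3a, at 84.4 CPM in TAC KO and 110 CPM in TAC WT, whose log2 fold change of -0.36 was 0.03 with the trends removed. The call of Adrm1 was lost as well (adjusted p = 0.062 by edgeR), and 3 other genes of the list were then called higher (Usp14, Ecpas and Ube3c) and 1 lower (Psme3ip1). Over all tested genes 12.6% were then called higher and 13.7% lower.

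Among 15 genes that control transcription of the family, 2 were higher and 6 lower in TAC KO than in TAC WT, with a median log2 fold change of -0.096, where 15.7% of all tested genes were called higher and 17.3% lower. With the trends removed the counts were again 2 and 6, where 12.6% of all tested genes were called higher and 13.7% lower. Nfe2l1, the factor known to raise proteasome genes when the proteasome is inhibited, averaged 513 ± 34.6 CPM in TAC KO and 628 ± 54.5 CPM in TAC WT (log2 fold change -0.28 ± 0.07 SE, adjusted p = 0.00911 by edgeR); it is named for its role and after its values were seen. Ddi2, the protease that activates Nfe2l1, averaged 31.8 ± 1.86 CPM in TAC KO and 47.7 ± 2.39 CPM in TAC WT (log2 fold change -0.57 ± 0.06 SE, adjusted p = 2.73e-05 by edgeR). The small Maf proteins Mafg and Mafk, partners of Nfe2l1 on DNA, were lower in TAC KO as well, by -0.48 and -0.75 on the log2 scale. Nfyc, a subunit of NF-Y, was higher, at 25.0 CPM in TAC KO and 21.0 CPM in TAC WT.

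In TAC WT against Sham WT 3 of the same 15 genes were higher and 2 lower, and 4 and 2 with the trends removed. Over all tested genes 9.67% were called higher and 10% lower, and 10.9% and 11.6% with the trends removed. Mafk averaged 101 ± 15.9 CPM in TAC WT and 48.6 ± 1.87 CPM in Sham WT (log2 fold change 1.02 ± 0.09 SE, adjusted p = 8.1e-06 by edgeR). Maff averaged 19.2 CPM in TAC WT and 9.11 CPM in Sham WT, and Mafg 83.1 CPM in TAC WT and 62.4 CPM in Sham WT. Nfyc was lower, at 21.0 CPM in TAC WT and 26.1 CPM in Sham WT. In TAC KO against Sham WT 1 gene was higher, Mafk at 59.4 CPM in TAC KO and 48.6 CPM in Sham WT, and 1 was lower, Ddi2 at 31.8 CPM in TAC KO and 45.1 CPM in Sham WT, where 12.8% of all tested genes were called higher and 14.8% lower. With the trends removed 0 were higher and 3 lower, and the call of Mafk was lost (adjusted p = 0.243 by edgeR). Over all tested genes 9.86% were then called higher and 11.5% lower.

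Upstream of the proteasome, Ubb, a gene for polyubiquitin, averaged 143 CPM in TAC KO, 118 CPM in TAC WT and 110 CPM in Sham WT, and was called in TAC KO against both other groups (log2 fold changes 0.29 and 0.35, adjusted p = 0.00394 and 0.00167 by edgeR). In TAC KO against TAC WT 15.7% of all tested genes were called higher and 17.3% lower. Ubb was the 1 higher gene of 6 ubiquitin genes and activating enzymes in that comparison. The 1 lower gene was Uba6, a ubiquitin-activating enzyme, at 8.55 CPM in TAC KO and 11.6 CPM in TAC WT (log2 fold change -0.42, adjusted p = 0.00223 by edgeR). With the trends removed neither was called, with adjusted p-values of 0.105 for Ubb and 0.4 for Uba6 by edgeR. In TAC KO against Sham WT 2 of the 6 were higher, Ubb and Rps27a, and 0 lower, with 1 lower at an unadjusted p under 0.05 and 0 by DESeq2 or limma voom. By edgeR 12.8% of all tested genes were called higher there and 14.8% lower. The segregase Vcp, which pulls ubiquitinated proteins out of membranes and complexes, averaged 268 CPM in TAC KO, 259 CPM in TAC WT and 256 CPM in Sham WT and was not called. Of 18 genes that deliver substrates, 3 were higher and 4 lower in TAC KO than in TAC WT. The shares over all tested genes were 15.7% higher and 17.3% lower. With the trends removed 2 of the 18 were higher and 4 lower, beside 12.6% and 13.7% of all tested genes. Ddi2 is in this list and in that of transcriptional control, so its lower call is counted in both.

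Genes of antigen presentation, some of which interferon raises together with the immunoproteasome, were mostly not called. The list also holds chaperones, among them Canx and Pdia3, whose calls are not read here as an interferon response. In TAC KO against TAC WT 15.7% of all tested genes were called higher and 17.3% lower by edgeR. Of the 15 genes of the list, 0 were higher and 1 was lower in TAC KO than in TAC WT by edgeR. At an unadjusted p under 0.05, 0 of the 15 were higher and 2 lower. DESeq2 called 0 higher and 1 lower, and limma voom 0 and 0. The lower gene was Pdia3, a chaperone of MHC class I loading, at 128 ± 13.8 CPM in TAC KO and 159 ± 26.0 CPM in TAC WT. In TAC WT against Sham WT 0 were called by edgeR or DESeq2, with 3 higher and 2 lower at an unadjusted p under 0.05, and limma voom called 1 higher and 2 lower. By edgeR 9.67% of all tested genes were called higher there and 10% lower. In TAC KO against Sham WT 12.8% of all tested genes were called higher and 14.8% lower. In that comparison H2-T23, a nonclassical class I gene, was higher, at 28.2 CPM in TAC KO and 23.4 CPM in Sham WT. The chaperone Canx was lower, at 268 CPM in TAC KO and 311 CPM in Sham WT. With the trends removed 2 of the 15 were lower in TAC KO than in TAC WT, 1 was lower in TAC KO than in Sham WT, which was neither of these, and 1 was lower in TAC WT than in Sham WT. The shares of all tested genes called lower were then 13.7%, 11.5% and 11.6% in the same order. In TAC KO against Sham WT 0 of the 15 were then higher, beside 9.86% of all tested genes, so the call of H2-T23 was lost. Without that removal, DESeq2 called 1 of the 15 higher and 1 lower in TAC KO against Sham WT, and limma voom 0 and 1.

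Markers of macrophages, which express much immunoproteasome, moved with the TAC KO group. Of all tested genes 15.7% were called higher and 17.3% lower in TAC KO against TAC WT. The shares were 12.8% and 14.8% in TAC KO against Sham WT, and 9.67% and 10% in TAC WT against Sham WT. Of 8 macrophage markers 5 were called higher in TAC KO than in TAC WT, 6 in TAC KO than in Sham WT and 0 in TAC WT than in Sham WT, and 0 were so at an unadjusted p under 0.05 or by DESeq2 or limma voom in that last comparison. Their summed level was 286 to 395 CPM in TAC KO, 198 to 301 CPM in TAC WT and 208 to 262 CPM in Sham WT hearts, and none of the 8 was at 0 in a whole group. Of 4 markers of all leukocytes, 2 were higher in TAC KO than in TAC WT, with summed levels of 41.3 to 53.3 CPM in TAC KO, 30.2 to 51.3 CPM in TAC WT and 38.1 to 41.1 CPM in Sham WT. Of 6 fibroblast markers, 2 were higher in TAC KO than in TAC WT, 4 in TAC KO than in Sham WT and 2 in TAC WT than in Sham WT, with summed levels of 1650 to 2030 CPM in TAC KO, 1380 to 1730 CPM in TAC WT and 1300 to 1530 CPM in Sham WT. Of 6 endothelial markers, 2 (Kdr and Tek) were lower in TAC KO than in TAC WT and than in Sham WT, with summed levels of 912 to 1050 CPM in TAC KO, 1050 to 1330 CPM in TAC WT and 1030 to 1240 CPM in Sham WT. Of 6 markers of smooth muscle and pericytes, 2 were higher and 1 lower in TAC KO than in TAC WT, and 3 higher and 1 lower in TAC KO than in Sham WT, with sums of 918 to 1060 CPM in TAC KO, 1010 to 1340 CPM in TAC WT and 1040 to 1180 CPM in Sham WT. Of 7 cardiomyocyte markers, 2 were higher in TAC KO than in TAC WT, 1 was higher and 3 lower in TAC KO than in Sham WT, and 3 were lower in TAC WT than in Sham WT. They summed to 66500 to 72400 CPM in TAC KO, 66700 to 68500 CPM in TAC WT and 71100 to 79600 CPM in Sham WT hearts. Markers of T, B and NK cells summed to at most 6.27 CPM in any heart. With the GC and length trends removed, 5 macrophage, 1 leukocyte and 1 fibroblast markers were higher in TAC KO than in TAC WT. So were 1 cardiomyocyte marker and 3 of smooth muscle and pericytes. The 2 markers then lower were endothelial. In that setting 12.6% of all tested genes were called higher and 13.7% lower. The part of cell composition in the proteasome results was not tested.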

How the data were processed

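Polyadenylated RNA from mouse hearts was sequenced as stranded libraries made from 250 ng of total RNA, per the labels' protocols. The authors deposited raw whole-number counts per gene, 1 table per library, with 54146 gene records. The submitters' processing notes name STAR, DESeq2, bcl2fastq, featureCounts 1.6.4, Trim Galore 0.5.0, FastQC 0.11.8, MultiQC 1.7, StringTie 1.3.5 and the build GRCm38. The annotation release, the strand setting and how reads with several matches were treated are not given in the sources used here, and the last could move counts between a gene and a near-identical copy. Gene identifiers were matched to GENCODE M21, which named 54079 records and left 67 without a symbol.

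From the counts, edgeR 4.0.16 in R 4.3.3 was run on all 12 libraries in 1 fit (TMM scaling, filterByExpr, quasi-likelihood F-test). Benjamini-Hochberg adjustment ran over all 15477 genes tested, of which 46 are described here, and a gene was called at an adjusted p under 0.05. SE is the log2 fold change over the square root of F. Groups came from the labels; replicate numbers follow accession order and pair nothing. 1 further gene that matches the symbol pattern is not reported here. Every member could be named, and up to 4 called genes of each other list with the smallest p in a comparison; Nfe2l1, Vcp, the marker lists and 5 genes named for a call gained or lost with trends removed (Usp14, Ecpas, Ube3c, Psme3ip1 and Tfeb) are outside that count, and these 5 were chosen after their values were seen. The members, lists and motifs were chosen with earlier results of these data known.

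Alternatives were DESeq2 1.42.0, limma 3.58.1 (voom, quality weights), scaling by upper quartile or RLE, a minimum of 1 CPM in 4 libraries or no minimum, only the groups compared, 1 surrogate variable (sva 3.50.0), each library left out, and removal of each library's trend over GC content and transcript length, with splines of 5 degrees of freedom. The scripts were tested on simulated data. A gene at 0 counts was given a limit of 3 counts, which is 0.0835 to 0.114 CPM and covers counting error only. Copies were searched with minimap2 2.31-r1302.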

Additional observations from a re-analysis of the deposited data

Results flagged for a closer look

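In groups of 4, a heart was picked out where its gap to the nearest other heart made up more of the whole range of the group than Dixon's 95% limit allows. This held in 10 of 138 groups (7.25%), and chance flags about 1 in 20. TAC KO replicate 1 was the outlying heart in 4 of them: it was high for Psmd9, at 23.9 CPM beside 19.4 to 19.9 CPM in the other TAC KO hearts, and low for Psmd1 at 113 CPM, Psmd6 at 68.1 CPM and Psma1 at 97.7 CPM. The same library had the steepest trend over GC content, 0.429 log2 units between the richest and poorest of 5 equal groups of genes; its part in these values was not tested. TAC KO replicate 2 was low for Psmc3, at 227 CPM, and for Psmb6, at 120 CPM, and high for Psmb9, at 9.68 CPM beside 7.96 to 7.98 CPM in the other TAC KO hearts. TAC WT replicate 2 was low for Psmc2, at 99.5 CPM. Sham WT replicate 1 was high for Psme1, at 125 CPM beside 95.8 to 99.1 CPM in the other Sham WT hearts, and without it the log2 fold change of TAC WT against Sham WT was the smallest in size of all libraries left out, at -0.37. Sham WT replicate 4 was high for Psmd5, a chaperone of the 19S base, at 19.7 CPM.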

How the results depend on the processing

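No paired analysis was possible because the labels give no replicate numbers. With no low-count filter 3 genes were called higher in TAC WT against Sham WT, 6 in TAC KO against TAC WT and 14 in TAC KO against Sham WT, where the fit reported had 6, 12 and 22. With 1 surrogate variable 3 genes were higher in TAC WT against Sham WT. With GC and length trends removed 13 were higher in TAC KO against Sham WT. In TAC KO against TAC WT 1 gene was lower instead of 0 with the 1 CPM filter, with trends removed and by DESeq2: Psmc5 with trends removed and Psmc6 in the others. Leaving out each library gave 3 to 10 genes higher and 1 lower in TAC WT against Sham WT, 6 to 13 higher and 0 to 1 lower in TAC KO against TAC WT, and 16 to 25 higher and 0 lower in TAC KO against Sham WT. Over principal transcripts in place of all exons, Psmb8 over Psmb5 was 0.274 in TAC KO, 0.273 in TAC WT and 0.283 in Sham WT, Psmb9 over Psmb6 was 0.0393 in TAC KO, 0.0454 in TAC WT and 0.0487 in Sham WT, and Psmb10 over Psmb7 was 0.288 in TAC KO, 0.291 in TAC WT and 0.246 in Sham WT. That length was an alternative chosen after seeing the data. Of 41 called gene and comparison pairs, 17 kept their direction and call under all 21 alternatives. The 861 values of these pairs held 753 with both kept, 107 in the same direction without the call and 1 reversed, Psmc3 in TAC KO against TAC WT at -0.004 with trends removed. The cause of these changes was not tested. RLE and upper-quartile scaling moved the median log2 fold change of all genes by at most 0.026. Psma8, at 0.394 to 1.17 CPM, was the gene most limited by depth.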

Other observations

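Autophagy and the lysosome are the other route by which heart cells degrade protein. Of 16 of their genes, 8 were higher and 1 lower in TAC KO than in TAC WT by edgeR, with a median log2 fold change of 0.191 beside -0.002 over all tested genes, of which 15.7% were called higher and 17.3% lower. With GC and length trends removed 6 were higher and 2 lower, with a median of 0.088. The shares over all tested genes were then 12.6% and 13.7%. Ulk1, the kinase that starts autophagy, averaged 96.6 ± 11.1 CPM in TAC KO and 61.4 ± 9.76 CPM in TAC WT (log2 fold change 0.66 ± 0.11 SE, adjusted p = 0.0006 by edgeR). The lysosomal protease Ctsd averaged 671 ± 57.1 CPM in TAC KO and 518 ± 29.7 CPM in TAC WT (log2 fold change 0.39, adjusted p = 0.00165 by edgeR), and the autophagosome protein Map1lc3b 139 ± 10.4 CPM in TAC KO and 109 ± 6.45 CPM in TAC WT (log2 fold change 0.36, adjusted p = 0.00171 by edgeR). Map1lc3a had a log2 fold change of 0.27, which was 0.04 with the trends removed, and the calls of Tfeb and Lamp1 were lost as well.

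In TAC KO against Sham WT 7 of the 16 were higher and 0 lower, with 11 higher and 0 lower at an unadjusted p under 0.05, and 7 and 0 by DESeq2, by limma voom and with the trends removed. By edgeR 12.8% of all tested genes were called higher and 14.8% lower, and 9.86% and 11.5% with the trends removed. Sqstm1, the receptor that carries ubiquitinated proteins into autophagosomes, averaged 442 ± 76.0 CPM in TAC KO and 291 ± 16.2 CPM in Sham WT (log2 fold change 0.58, adjusted p = 0.00103 by edgeR). In TAC WT against Sham WT 4 were higher and 0 lower, with 3 lower at an unadjusted p under 0.05, 2 lower by DESeq2 and 3 by limma voom. With the trends removed 4 were higher and 3 lower. Over all tested genes 9.67% were called higher and 10% lower by edgeR, and 10.9% and 11.6% with the trends removed. The co-chaperone Bag3, which directs proteins to autophagy, averaged 383 ± 31.3 CPM in TAC WT and 284 ± 5.65 CPM in Sham WT, and it was the 1 gene of the list that was lower in TAC KO than in TAC WT, at 325 ± 29.3 CPM in TAC KO and 383 ± 31.3 CPM in TAC WT. Macrophages and other cells also express lysosomal genes, and the part of their markers in these values was not tested.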
